A study of Mus musculus with 2 samples.

Results

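Tubulin genes were examined in neural stem/progenitor cells (NSPCs) that carry a lipid droplet reporter and were sorted by its brightness. The members were 9 mouse genes chosen by name: the alpha tubulins Tuba1a, Tuba1b, Tuba1c and Tuba4a, the beta tubulins Tubb5, Tubb2a, Tubb2b and Tubb6, and the gamma tubulin Tubg1. Of these, 8 were among the 15046 genes of the count table and all 8 passed the filter on low counts in every comparison, while Tuba4a was not analysed here. Together they held 0.290% of all counted molecules, and the members were named by gene, with no measured value in the rule.

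The NSPCs came from the subventricular zone of male C57/Bl6 mice aged 6 to 8 weeks, were grown for at least 5 passages and kept proliferating with EGF at 20 ng/ml and FGF-2. A retrovirus had given every cell, low and high alike, a fusion of the lipid droplet coat protein PLIN2 to GFP, and the infected cells were expanded as a single stable line, so that neither category is unlabelled and no second line was compared. Cells with the lowest and the highest 25% of GFP signal (low and high PLIN2-GFP) were sorted into 2 plates of 384 wells, and 304 cells (167 low, 137 high, 179 on the first plate and 125 on the second) were in the count table. By the deposited annotation 132 cells were in G1 phase, 77 in S phase and 95 in G2/M.

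Counts were unique molecular identifiers (UMIs), which count captured mRNA 3′ ends, and were summed over the cells of a plate and category (777897 to 1028930 UMIs in each of 4 sums) or of a plate and phase (460184 to 767257 in each of 6 sums). The median cell held more UMIs in the high than in the low category on both plates (11709 against 7856, and 14729 against 11955). It also held more in S (10994 and 15301) and G2/M (9565 and 12902) than in G1 phase (8290 and 9825), with a median mitochondrial share of 14.0% and 13.8% in G1 against 11.3% to 11.9% in the other phases. Low and high cells shared no row of wells on either plate, so the place on the plate and the category cannot be told apart. All 5 NSPC markers (Nes, Vim, Hes1, Fabp7, Sox2) were counted, at a sum of 5915 to 6771 UMIs per 1000000 counted (CPM) in the 10 sums, none of 5 microglial markers was in the table, and of 6 astrocyte markers 5 were counted, Slc1a2 with 283.7 UMIs, Aldh1l1 with 248, S100b with 39, Aqp4 with 16 and Gfap with 1.5. Of oligodendrocyte markers, Mbp, Mog and Sox10 were not in the table, Cnp had 65.5 UMIs, and Olig1, a transcription factor that progenitors also express, had 7962. Of 10 neuronal markers 6 were in the table, and 5 of those held 92 UMIs or fewer each, the exception being Map2 with 1632. The plates held the same line, so that p-values speak to plates of sorted cells and not to separate lines. With the plate as a block, the fit of 4 sums left 1 residual degree of freedom and that of 6 sums left 2. The spread behind the p-values was therefore largely shared over genes, and not taken from each gene's own plates.

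Microtubules are hollow polymers of alpha and beta tubulin pairs, and both proteins are made from several genes, the isotypes, whose products differ mainly in their acidic tails. Gamma tubulin is not part of the polymer wall: within ring complexes at the centrosome it starts new microtubules, many of them for the mitotic spindle. In neural tissue Tuba1a, Tubb2a and Tubb2b are known as the isotypes of young neurons and their precursors, and TUBA1A and TUBB2B mutations are known from malformations of the cortex. Tuba1b, Tuba1c, Tubb5 and Tubb6 are expressed in many dividing cell types. The first set is called post-mitotic isotypes here and the second mitotic isotypes, as names for the lists and not as results.

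How well reads tell the isotypes apart bears on every value that follows. The last 60 coding bases, stop codon included, are shown 5′ to 3′ for the closest pair of beta isotypes, with capitals at the bases that differ within the pair (from the GENCODE transcripts of build GRCm38).
Tubb2a: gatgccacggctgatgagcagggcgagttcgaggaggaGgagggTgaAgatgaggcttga
Tubb2b: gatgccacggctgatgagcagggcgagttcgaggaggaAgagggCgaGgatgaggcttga
The pair differed at 3 of these 60 bases. Over the whole coding sequence Tuba1a and Tuba1b were 98.3% identical, Tuba1b and Tuba1c 97.9%, and Tubb2a and Tubb2b 96.5%, while Tubb5 and Tubb6 matched the other beta isotypes at 80.3% to 84.6%. Reads were 60 bases long, and of the 1744 stretches of 60 bases in the Tuba1a transcript 39.2% occurred letter for letter in Tuba1b. UMIs came from 3′ ends, and of the 441 such stretches nearest the 3′ end of Tuba1a 222 occurred in Tuba1b. Of those of Tuba1c 297 of 441 occurred in Tuba1a. For Tubb2a 165 of 441 occurred in Tubb2b, but for Tubb2b 0 of 441 occurred in Tubb2a. No such stretch of Tubb5 or Tubb6 occurred in another beta isotype of the list.

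Tuba1a (98949837 to 98953703) and Tuba1b (ending at 98934565), both on the minus strand, and Tuba1c (99029891 to 99038110, plus strand) lie within the same stretch of chromosome 15. Tubb2a (34074274 to 34078007) and Tubb2b (34126748 to 34130466) lie on the minus strand of chromosome 13, Tubb5 (35833921 to 35838306) on the minus strand of chromosome 17, Tubg1 (101119938 to 101126419) on the plus strand of chromosome 11 and Tubb6 on chromosome 18.

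The counts carried the mark of this likeness. The authors' counting divided a UMI between genes when its reads matched several, which leaves values that are not whole numbers (here, more than 0.001 from one). Of the Tuba1b UMIs 93.7% stood in cells with such a value, of the Tuba1a UMIs 86.0%, and of the Tuba1c UMIs 19.2%. For Tubb2a and Tubb2b the shares were 4.72% and 5.47%, and the sum of the pair was whole in all 302 cells that had any. Tubb5, Tubb6 and Tubg1 values were whole in every cell. The sum of the 3 alpha isotypes was still not whole in 246 of 299 cells, so part of the division involved genes outside the list. Values of Tuba1a, Tuba1b and Tuba1c taken singly are therefore uncertain as to which gene a molecule came from. Their sum is given beside them, but 91.7% of its UMIs also stood in cells with a value that was not whole. The sum is thus not free of division with genes outside the list. The beta and gamma values do not share this limit to the same degree.

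Within single cells the division between Tuba1a and Tuba1b was uneven. Among 233 cells with at least 5 UMIs of the pair, Tuba1b held over 99% in 22 cells and under 1% in 33 cells, and between these in 178. The median share of Tuba1b was 12.6% in 92 G1 cells, 29.3% in 62 S cells and 34.7% in 79 G2/M cells. G1 cells made up 23 of the 33 cells with nearly no Tuba1b, and G2/M cells 11 of the 22 with nearly no Tuba1a.

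**Figure D1:**
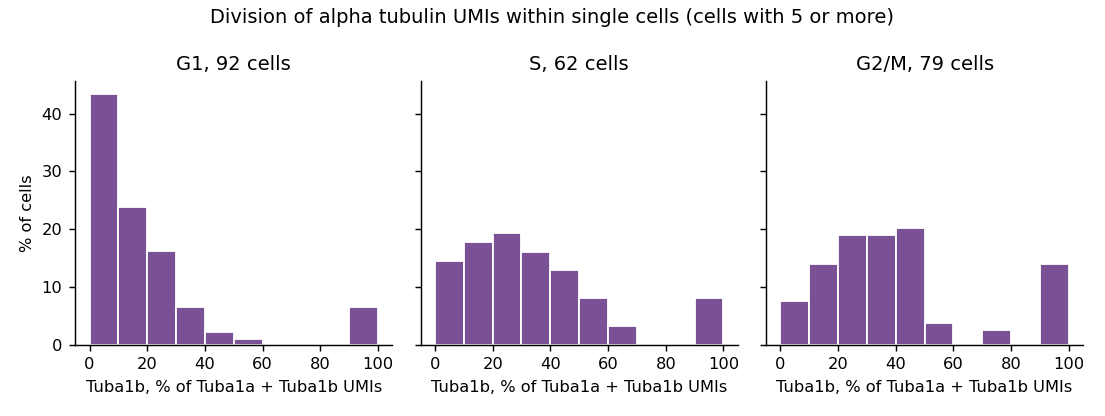
Histograms of the percentage of Tuba1a plus Tuba1b UMIs given to Tuba1b in each cell (x axis, bins of 10), as a percentage of the cells of a phase (y axis), for cells with 5 or more UMIs of the pair. Most G1 cells lie at the left, S and G2/M cells spread further right, and each phase has a separate group at the right edge.

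Tubb2b and Tuba1a were the most counted members over all cells. Tubb2b had 877 CPM, was found in 301 of 304 cells and ranked 133 among all genes. Tuba1a followed with 781, then Tubb5 with 432, Tuba1b with 341, Tubb2a with 206, Tubb6 with 142, Tubg1 with 86.8 and Tuba1c with 29.6. A UMI marks 1 captured end whatever the transcript's length, so these counts need no scaling by length. Divided per kilobase of transcript all the same, Tuba1a would come first (433) and Tubb2b second (402). Tuba1b (196) would pass Tubb5 (163), and the other members would keep their places. In each of the 6 sums of a plate and phase Tubb2b exceeded Tuba1a, by the least in G1 phase of the first plate (812 against 808), and Tubb5 exceeded Tuba1b. Tubb2a and Tubb6 changed places in G2/M phase of the second plate (199.7 against 237). Of the post-mitotic list Tubb2b and Tuba1a thus had the highest counts of all members in these proliferating cells, and Tubb2a stood below Tubb5 and Tuba1b.

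The first comparison asked whether the isotypes differ between the phases of the cell cycle, and the mitotic isotypes did. Between G1 and G2/M phase Tuba1b, Tuba1c, Tubb5 and Tubb6, all 4 of the mitotic list, and Tubg1 rose, by 1.83-fold to 7.07-fold. Of the 3 post-mitotic isotypes measured, Tubb2a rose by 1.31-fold, and Tuba1a and Tubb2b did not pass the test. In all, 6 of 8 members were higher and 0 lower in G2/M phase (edgeR, adjusted p under 0.1), where 16.4% of the 7650 genes tested were called, 9.01% higher and 7.4% lower. Neither Seurat's S nor its G2/M gene list, from which such phases are scored, holds any of the 9 members. Phases scored again without any tubulin gene differed from the deposited phases in 8 cells. Their agreement with the deposited phases was 97.4%, against 97.7% when scored again with the tubulin genes.

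Tuba1b, a broadly expressed alpha tubulin, had 192 CPM in G1 phase of the first plate, 382 in S and 554 in G2/M, and 209, 287 and 459.6 on the second plate. Both G2/M values lay above both S values, and both S values above both G1 values. Its log2 fold change from G1 to G2/M was 1.34 (SE 0.14, edgeR adjusted p = 2.3e-08). Tubb5, the main beta tubulin of many dividing cells, went from 320.1 and 301 in G1 (first and second plate) through 433 and 421 in S to 595 and 549 in G2/M phase. Its phases were likewise ordered without overlap, with a log2 fold change of 0.87 (SE 0.12, adjusted p = 2.2e-06). Tubb6, a beta isotype with low levels in most tissues, went from 79.4 and 60.7 through 137 and 147 to 208 and 237. Here too no 2 phases overlapped, and the log2 fold change of 1.62 (SE 0.19, adjusted p = 1.8e-07) was the steepest among the members with over 50 CPM in G1 phase.

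Tuba1c was rare outside G2/M phase. The first plate gave it 59 UMIs in G2/M phase against 5 in G1 and 5 in S, the second plate 19 against 7 and 7, which made 96.7 CPM against 6.73 and 10.6 on the first and 36.8 against 13.7 and 11.6 on the second. The plates differed most in G2/M phase, and G1 and S values overlapped. Of the 50 cells with a Tuba1c UMI 34 were in G2/M, 9 in S and 7 in G1 phase. Its log2 fold change was 2.82 (SE 0.44, adjusted p = 2.4e-05), and 1.59 (adjusted p = 0.20) without the G2/M sum of the first plate. Tubg1, which starts microtubules within ring complexes, had 56.5 and 50.9 CPM in G1, 90.8 and 94.0 in S, and 141 and 91.1 in G2/M phase. Both cycling phases lay above G1 phase and overlapped each other. Its log2 fold change to G2/M phase was 1.12 (SE 0.23, adjusted p = 0.0012), and 0.76 (adjusted p = 0.17) without the first plate's G2/M sum.

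The post-mitotic isotypes followed another course. Tuba1a had 808 and 886 CPM in G1, 690.4 and 586 in S, and 860.2 and 861 in G2/M phase. Its G2/M values lay within the range of G1, with a log2 fold change of 0.02 (95% interval -0.19 to 0.22, adjusted p = 0.95), while both S values were the lowest. Tubb2b had 812 and 970.5 in G1, 758 and 701 in S, and 931 and 1140.0 in G2/M phase. S values were lowest on each plate and the G2/M value was above G1 on each plate, but the plates overlapped, and the log2 fold change to G2/M of 0.21 did not pass in this fit (95% interval 0.00 to 0.41, adjusted p = 0.20). Tubb2a had 218 and 145 in G1, 222 and 163 in S, and 277 and 199.7 in G2/M phase. The plates differed more than the phases did, and its log2 fold change of 0.39 (SE 0.15, adjusted p = 0.098) only just passed the threshold and did not without either plate's G1 or G2/M sum (adjusted p of 0.26 to 0.34).

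The cells differed in depth between phases, and with every cell thinned to 5000 UMIs the G2/M changes were 1.48 for Tuba1b, 1.04 for Tubb5, 1.25 for Tubb6 and 1.01 for Tubg1, all past the threshold, while Tubb2a stood at 0.06 (adjusted p = 0.93) and Tuba1c had too few UMIs to be tested. Tubb2b passed there (0.31, adjusted p = 0.094), as it did with library size only (0.25, adjusted p = 0.085), in the fit of 12 sums (0.23, adjusted p = 0.083) and without the S sum of either plate (0.22, adjusted p = 0.076 and 0.081). With DESeq2 Tubg1 did not pass (1.10, adjusted p = 0.14).

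Markers of other cell types also moved with the phase in the same fit. Between G1 and G2/M phase Olig1 fell (-0.80, adjusted p = 1.6e-09), as did the oligodendrocyte enzyme Cnp (-1.24, adjusted p = 0.087), the glutamate transporter Slc1a2 (-0.83, adjusted p = 0.011) and the NSPC intermediate filament Vim (-0.29, adjusted p = 0.0053). The 5 astrocyte markers summed to 244 and 193 CPM in G1 against 124 and 119 in G2/M. Neuronal markers, none of them called, summed to 577 and 481 against 439.5 and 500.1. In S phase Olig1 (-0.32, adjusted p = 0.0031), Slc1a2 (-0.71, adjusted p = 0.039) and the fatty acid binding protein Fabp7 (-0.23, adjusted p = 0.043) fell and the intermediate filament Nes rose (0.44, adjusted p = 0.044). Their part in the tubulin values was not tested.

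**Figure D2:**
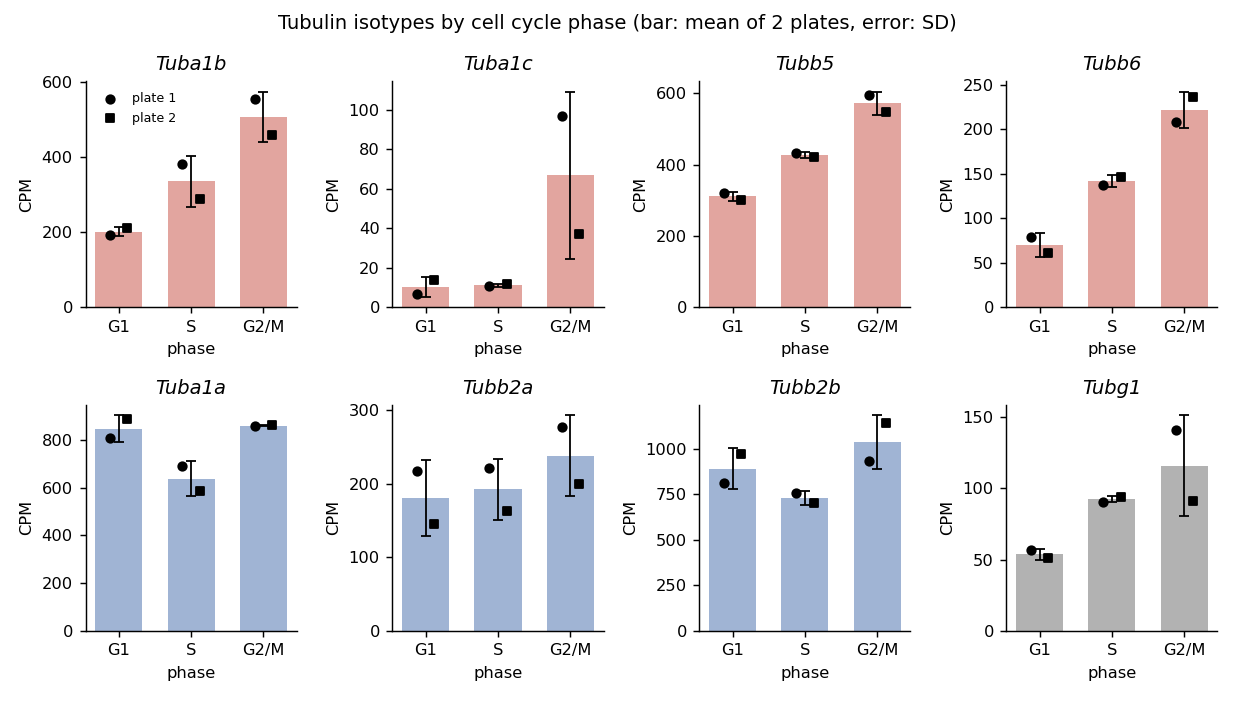
CPM (y axis, from 0) of each member in G1, S and G2/M phase (x axis); bars are the mean of 2 plates, error bars the SD, circles the first and squares the second plate. All 4 red genes of the mitotic list step up from G1 to G2/M phase on both plates, by 1.83-fold to 7.07-fold in the fit; of the blue post-mitotic genes Tubb2a and Tubb2b are also higher in G2/M on both plates, by smaller folds, and Tuba1a is not. The y axes differ between genes.

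In S phase both directions occurred. Compared with G1 phase, Tuba1b (log2 fold change 0.76, SE 0.15, adjusted p = 0.00088), Tubb6 (1.00, SE 0.20, adjusted p = 0.0014), Tubb5 (0.47, SE 0.12, adjusted p = 0.012) and Tubg1 (0.82, SE 0.25, adjusted p = 0.033) rose. Tuba1a fell (-0.40, SE 0.10, adjusted p = 0.012), as did Tubb2b (-0.28, SE 0.10, adjusted p = 0.096). Tuba1c (0.33, 95% interval -1.01 to 1.67) and Tubb2a (0.10, 95% interval -0.22 to 0.43) did not pass. These 4 higher and 2 lower members stood against 12.7% of the 7650 genes tested, 7.56% higher and 5.19% lower, and the members' median log2 fold change was 0.40 against -0.03 for all. In cells thinned to 5000 UMIs the same 4 members rose (Tuba1b by 1.03, Tubb5 by 0.84, Tubb6 by 0.89, Tubg1 by 1.17), Tuba1a fell (-0.51), and Tubb2b did not pass (-0.19, adjusted p = 0.50). Several of these calls were lost when a single sum was left out, here with the log2 fold change and then the adjusted p in parentheses. Without the S sum of the second plate, Tuba1a (-0.24, 0.34), Tubb5 (0.45, 0.11), Tubg1 (0.59, 0.38) and Tubb2b (-0.07, 0.82) did not pass. Without that plate's G1 sum Tuba1a (-0.27, 0.29) and Tubb2b (-0.19, 0.54) did not, and without its G2/M sum Tubb2b (-0.27, 0.11) did not. Without the G1 sum of the first plate Tuba1b (0.49, 0.15), Tubb5 (0.46, 0.12) and Tubg1 (0.71, 0.29) did not pass.

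Because the alpha isotypes divided their UMIs, Tuba1a, Tuba1b and Tuba1c were also added up and fitted as a single gene. On the first plate the sum went from 1008 CPM in G1 through 1085 in S to 1514 in G2/M phase, and on the second from 1109 through 886 to 1357. G2/M phase was highest on both plates, whereas S phase lay above G1 on one plate and below it on the other. The sum rose in G2/M phase (log2 fold change 0.43, SE 0.10, edgeR adjusted p = 0.0021) and its S phase change was -0.10 (95% interval -0.30 to 0.11, adjusted p = 0.64). Total alpha isotype UMIs in S phase were thus not shown to differ from G1, while the counting gave more of them to Tuba1b and fewer to Tuba1a. The sum of Tubb2a and Tubb2b rose by 0.24 in G2/M phase (SE 0.09, adjusted p = 0.094) and its S phase change was -0.21 (95% interval -0.40 to -0.02, adjusted p = 0.18).

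**Figure D3:**
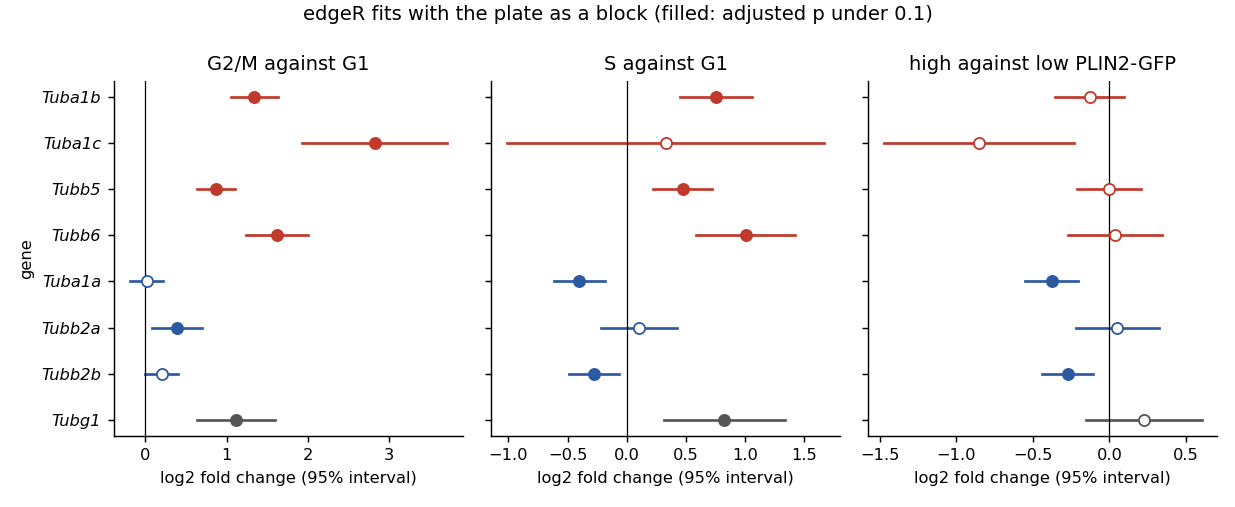
Log2 fold changes (x axis, points) with 95% intervals (lines) of each member (y axis) for G2/M against G1, S against G1 and high against low PLIN2-GFP; filled points have an adjusted p under 0.1, red marks the mitotic, blue the post-mitotic isotypes and grey Tubg1. In the left panel all red points are filled and right of 0, and in the right panel Tuba1a and Tubb2b alone are filled, left of 0.

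The balance between both lists was described by the mitotic isotypes' share of the UMIs of all 7 alpha and beta isotypes. It was 24.6% and 22.6% in G1 phase (first and second plate), 36.6% and 37.4% in S, and 41.3% and 36.8% in G2/M phase. On each plate the share was higher in S than in G1 phase, by 13.4 ± 1.97 percentage points (mean ± SD, n = 2 plates), and the G2/M share exceeded that of G1 by 15.5 ± 1.77, whereas S and G2/M overlapped. With the beta isotypes alone, whose UMIs were hardly divided, the share was 27.9% and 24.5% in G1, 36.8% and 39.6% in S, and 39.9% and 37.0% in G2/M phase. The same step after G1 phase was therefore seen without any alpha tubulin. All 8 members together made up 2416 and 2572 CPM in G1, 2803 and 2507 in S, and 3706 and 3491 in G2/M phase, so that their total was highest in G2/M phase on both plates.

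The second comparison asked whether the isotypes differ between NSPCs with few and many lipid droplets. Tuba1a and Tubb2b were lower in high PLIN2-GFP cells, and the other 6 members did not pass the test. These 2 lower members (and 0 higher) stood against 2.14% of 8348 genes tested, 1.26% lower and 0.886% higher. Tuba1a had 855 CPM in low and 748 in high cells of the first plate, and 902 and 619 on the second. Both high values lay below both low values, with a log2 fold change of -0.38 (SE 0.09, edgeR adjusted p = 0.0034). Tubb2b had 944 and 979 in low cells and 754 and 860.0 in high cells, again without overlap, with a log2 fold change of -0.27 (SE 0.09, adjusted p = 0.078). Both calls depended on the plate as a block: without it neither passed (adjusted p = 0.996 for each), nor did they with DESeq2 (adjusted p = 0.30 and 0.51) or with cells thinned to 5000 UMIs (-0.29, adjusted p = 0.29, and -0.22, adjusted p = 0.47). With any 1 of the 4 sums left out, and therefore no block, adjusted p was 0.98 to 1.00 for both. Tubb2b also missed the threshold when scaled by library size only (-0.20, adjusted p = 0.18).

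The alpha sum was also lower in high cells. It had 1284 and 1256 CPM in low and 1126 and 937 in high cells, a log2 fold change of -0.32 (SE 0.08, edgeR adjusted p = 0.0085). In high cells Tuba1a held 783 of the sum's 1178 UMIs on the first plate and 490 of 742 on the second, so the sum largely repeats Tuba1a. The sums were fitted only with edgeR and the plate as a block. The alternatives in which Tuba1a did not pass were not run for the alpha sum. The sum of Tubb2a and Tubb2b did not pass (-0.21, 95% interval -0.37 to -0.05, adjusted p = 0.23). Tubb5 had 420.3 and 436 in low and 455 and 408 in high cells, with a log2 fold change of -0.01 (95% interval -0.21 to 0.20). Tuba1b (-0.13, 95% interval -0.36 to 0.10), Tubb2a (0.05, -0.22 to 0.32), Tubb6 (0.04, -0.27 to 0.35) and Tubg1 (0.22, -0.16 to 0.60) had intervals that include 0. Tuba1c had 48 UMIs in low against 21 in high cells on the first plate and 14 against 19 on the second, so the plates went in opposite directions, and its change did not pass (-0.85, adjusted p = 0.20), though it did without the low sum of the second plate (-1.50, adjusted p = 0.070). Vim was lower in high cells too (-0.22, SE 0.06, adjusted p = 0.040), the only marker gene called in this comparison. Map2, the neuronal marker with most UMIs, had a log2 fold change of -0.29 in the same fit (SE 0.10, adjusted p = 0.17), and all 6 neuronal markers measured summed to 561 and 557 CPM in low and 546 and 423 in high cells. The part of Vim and of the neuronal markers in the Tuba1a and Tubb2b values was not tested.

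Within phases, Tubb2b kept its direction and Tuba1a did not. Tubb2b was lower in high cells in 6 of 6 pairs of a plate and a phase, by -0.53 and -0.13 (log2, first and second plate) in G1, -0.09 and -0.20 in S, and -0.31 and -0.16 in G2/M phase. Tuba1a was lower in 4 of 6 pairs, at -0.44 and 0.13 in G1, -0.25 and -1.13 in S, and 0.15 and -0.71 in G2/M phase. The second plate's S and G2/M cells thus held the widest Tuba1a differences. In G1 cells alone neither gene passed (Tuba1a -0.18, adjusted p = 0.75; Tubb2b -0.35, adjusted p = 0.42, with 8 of 5288 genes called). Over all phases together the mitotic share was 32.5% and 31.4% in low and 35.8% and 34.6% in high cells. It was 3.23 ± 0.10 percentage points higher in high cells (SD, n = 2 plates), and 1.37 ± 0.45 with cells thinned to the same depth. G1 cells, whose share was lowest, were 49 of 95 low and 32 of 84 high cells on the first plate. On the second plate they were 31 of 72 low and 20 of 53 high cells. The share was not compared within phases, and the part of this phase mix in it was not tested.

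**Figure D4:**
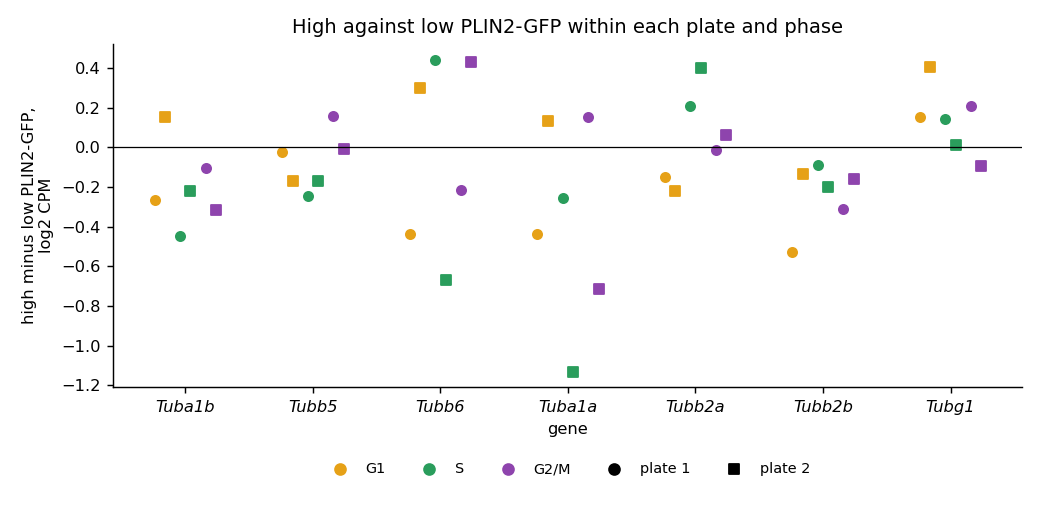
Difference between high and low PLIN2-GFP cells in log2 CPM (y axis) for each member but Tuba1c, whose counts were too few (x axis), within G1 (orange), S (green) and G2/M phase (purple) of the first (circles) and second plate (squares). All 6 Tubb2b points lie below 0, while every other member shown has points on both sides. Tuba1b and Tubb5 each have 5 of 6 points below 0, and Tubg1 has 5 of 6 above.

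The G2/M rise of each isotype was compared between the categories in the 12 sums of a plate, category and phase (15 to 49 cells and 186088 to 413237 UMIs each). In all 4 pairs of a plate and category Tuba1b, Tubb5, Tubb6, Tubg1, Tubb2a and Tubb2b were higher in G2/M than in G1 phase. The Tubb5 differences were nearly alike, at 0.76 and 0.76 in low and 0.94 and 0.93 in high cells (log2, first and second plate). Tuba1b differences were 1.43 and 1.31 in low and 1.59 and 0.83 in high cells. For no member did the difference between categories pass edgeR's test (0 of 8, against 0.0162% of 6163 genes in either direction, or 1 gene) or DESeq2's. At an unadjusted p under 0.05 the test gave 277 genes, and the only member among them, Tuba1c, rested on 0 UMIs in low G1 cells of the second plate, so no fold is given for it. Its UMIs in G2/M phase were 42 and 11 in low and 17 and 8 in high cells, and in G1 phase 2 and 0 in low and 3 and 7 in high cells. The intervals of the difference were wide for single members, for example -0.69 to 0.40 for Tuba1b and -0.31 to 0.61 for Tubb5.

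**Figure D5:**
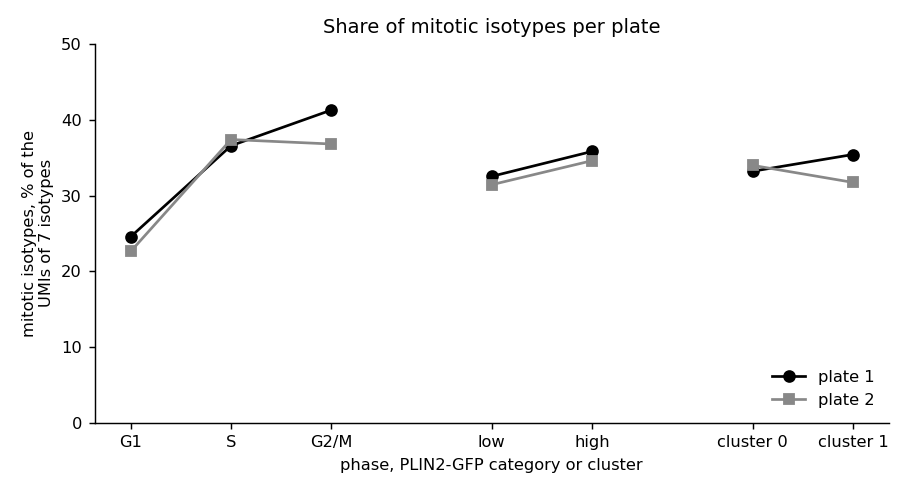
Percentage of the UMIs of 7 alpha and beta isotypes that came from Tuba1b, Tuba1c, Tubb5 and Tubb6 (y axis, from 0) by phase, PLIN2-GFP category and cluster (x axis), with 1 point for each plate joined by lines (black circles first, grey squares second plate). The share steps up after G1 phase on both plates (22.6% to 24.6% in G1, 36.6% to 41.3% in S and G2/M), and the lines between clusters cross.

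The deposited clusters were made from the genes of these cells after the phase had been regressed out, so their levels are a description without a test. Cluster 0 held 155 and cluster 1 held 149 cells. Tuba1a had 688 and 631 CPM in cluster 0 and 903 and 925 in cluster 1, and Tuba1b had 287 and 286 in cluster 0 and 441 and 354 in cluster 1. Both alpha isotypes were thus higher in cluster 1 on each plate, without overlap. Tubb5 (439 and 404 against 438.5 and 447), Tubb6 (126 and 152 against 148 and 144) and Tubb2b (814 and 869 against 853 and 988.5) overlapped, and Tubg1 (108 and 84.5 against 76.9 and 74.0) was lower in cluster 1, as was Tubb2a (271 and 180.5 against 202 and 156) on each plate. Tuba1c (29.4 and 22.9 against 46.3 and 17.2) crossed. The mitotic share crossed between the plates, at 33.2% and 34.0% in cluster 0 and 35.4% and 31.7% in cluster 1.

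The proteins that fold, nucleate, bind and organise tubulin gave the members' surroundings. Of 20 spindle microtubule proteins tested 18 rose in G2/M phase and none fell, among them the motor Kif11 (3.91), the spindle assembly factor Tpx2 (2.73) and the midzone bundling protein Prc1 (2.51, all log2 fold changes in the same fit). Kif11 and Tpx2 are themselves in Seurat's phase lists, so their rise was built into the phases. Leaving out genes that Seurat uses to score phases, 10 of 12 rose, with a median of 2.38 against -0.02 for all genes tested. The mitotic isotypes' median was 1.48 and that of the post-mitotic isotypes 0.21. Of 5 proteins that bind or destabilise tubulin, Kif18a, a motor that limits microtubule length (3.27, adjusted p = 1.1e-08), and Stmn1, which sequesters tubulin dimers (0.80, adjusted p = 6.0e-06), rose. The other lists are read against 9.01% of all genes called higher and 7.4% lower. Of 19 tubulin folding genes 3 rose, Cct4 of the CCT chaperonin (0.46, adjusted p = 0.016) and the prefoldin subunits Pfdn6 (0.66, adjusted p = 0.031) and Vbp1 (0.50, adjusted p = 0.070). Of 9 other genes of the gamma tubulin ring complex only Nedd1, which tethers the complex (1.46, SE 0.56, adjusted p = 0.094), passed. The 9 changes ranged from -0.78 (Tubgcp5) to 1.46, with a median of 0.36 and SEs of 0.28 to 0.66. With SEs this wide, the values do not settle whether the partners rose as Tubg1 did. Of 13 interphase and neuronal microtubule proteins 2 fell, Dclk1 (-0.54, adjusted p = 0.059) and Map1a (-0.65, adjusted p = 0.098), and of 7 enzymes that modify tubulin none passed. Tubb4b, the only other tubulin gene tested and itself among Seurat's G2/M genes, rose by 1.83 (adjusted p = 4.9e-08). Ttc5, which recognises nascent tubulin chains in the feedback that degrades tubulin mRNA, had a value of -0.35 (SE 0.56, adjusted p = 0.77).

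In S phase 14 of the 20 spindle proteins, among them Kif11 (2.37, adjusted p = 9.8e-07), the motor Kif15 (3.05, adjusted p = 9.4e-05) and Prc1 (1.11, adjusted p = 0.00013), were higher than in G1. Kif11 is in Seurat's phase lists, and outside these lists 8 of 12 spindle proteins were higher than in G1. So were Kif18a (2.09, adjusted p = 0.00051), Stmn1 (0.50, adjusted p = 0.0044) and the ring complex gene Cdk5rap2 (0.91, adjusted p = 0.055), and 0 of 19 folding genes passed, where 7.56% of all genes were called higher. Between high and low cells 2 of 20 spindle proteins were higher in high cells, Prc1 (0.47, adjusted p = 0.028) and Kif23 (0.70, adjusted p = 0.079). Of 6 that bind or destabilise tubulin, Kif18a (0.78, adjusted p = 0.077) was higher and Stmn1 (-0.28, adjusted p = 0.091) was lower. Of all genes tested there, 0.886% were called higher and 1.26% lower. The 179 calls of that fit became 1 without the plate as a block and 11 with DESeq2. Values of Prc1, Kif23, Kif18a, Stmn1 and Vim under these alternatives are not given here. The phase mix differed between the categories, and its part in the values of these genes was not tested. Of the folding, ring complex, interphase and modification genes none passed in that comparison.

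The genes whose level was most like a member's over the 12 sums were listed among 3599 genes with a mean of at least 50 CPM, as a description. The sums shared plates, cells of a category and depth. For Tubb5 they were Birc5 (Pearson's r = 0.970), Ect2 (0.956) and Nusap1 (0.955), all in Seurat's G2/M list, and Tuba1b came eighth with 0.94. For Tuba1b they were Cdca8 (0.95), Tubb5 (0.94) and Ccna2 (0.93). For Tubb2b they were the ribosomal protein genes Rpl29 (0.90) and Rpl23a (0.90) and Bmi1 (0.88), with Tuba1a at 0.60. For Tuba1a they were the gamma protocadherins Pcdhga8 (0.91), Pcdhgb5 (0.89) and Pcdhgb2 (0.89), genes that share their last exons and of whose UMIs 94.9% to 95.1% likewise stood in cells with values that were not whole.

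Promoter sequences of 5 of the 8 measured members were in RefSeq's set (build GRCm38.p6). The windows of Tuba1a and Tuba1b reach into the GENCODE extent of their own genes and are not shown, although Tuba1b also rose. That of Tubb5 reaches a few bases into its gene. The 250 bases before the start site are shown for Tubb5 and Tuba1c, which passed the test in G2/M phase, the second with few UMIs, and for Tubb2a, whose change was small, written 5′ to 3′ along the gene with CCAAT on either strand (ATTGG on the other) in capitals.
Tubb5 (chr17:35838302-35838551, minus strand): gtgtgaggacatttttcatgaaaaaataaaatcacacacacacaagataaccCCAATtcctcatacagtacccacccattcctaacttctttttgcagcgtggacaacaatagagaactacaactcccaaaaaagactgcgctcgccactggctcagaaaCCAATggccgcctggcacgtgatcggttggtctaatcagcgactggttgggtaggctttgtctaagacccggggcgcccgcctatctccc
Tuba1c (chr15:99029641-99029890, plus strand): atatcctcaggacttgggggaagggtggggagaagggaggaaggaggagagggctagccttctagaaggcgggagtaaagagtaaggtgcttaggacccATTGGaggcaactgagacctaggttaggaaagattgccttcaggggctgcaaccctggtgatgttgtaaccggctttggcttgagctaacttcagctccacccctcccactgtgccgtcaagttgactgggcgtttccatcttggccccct
Tubb2a (chr13:34078009-34078258, minus strand): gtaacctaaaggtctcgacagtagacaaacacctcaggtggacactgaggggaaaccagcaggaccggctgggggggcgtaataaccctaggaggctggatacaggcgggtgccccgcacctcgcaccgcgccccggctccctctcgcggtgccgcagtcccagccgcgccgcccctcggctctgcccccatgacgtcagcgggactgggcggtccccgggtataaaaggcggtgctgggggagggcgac
CCAAT, which occurs in many cell cycle promoters, stood 198 and 90 bases before the start of Tubb5, 151 before that of Tuba1c on the other strand, and was not in the Tubb2a window. It was in 33.8% of 32851 promoters of the same length. In the windows not shown, CCAAT was in that of Tuba1a, which did not pass in G2/M phase. It was not in that of Tuba1b, which rose. TTTGAA, the core of the cell cycle genes homology region, was in none of these 3 windows (16.0% of all promoters). Of these 3 windows TATAAA was in that of Tubb2a, 29 bases before the start (12.4% of all promoters). Both strands were searched and no matches overlapped.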

How the data were processed

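Single cells on 2 plates were sequenced by SORT-seq, a plate form of CEL-Seq2 that reads mRNA 3′ ends with UMIs. The deposited table held estimated counts per gene and cell, which the authors made with Salmon and alevin on GRCm38, dividing UMIs that match several genes, and deposited after their filter on mitochondrial share and doublets. The deposited annotation gave count totals, the percent of mitochondrial counts, phase scores, phase, category and cluster per cell, made by the authors with Seurat; 11 cells had over 20% mitochondrial counts. Doublets were not called again. Fractions of mitochondrial and ribosomal counts and a doublet score, also deposited, were not used. Table columns were joined to cells by equal totals of UMIs and genes (304 of 304).

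Counts were summed per plate and category or phase, rounded, scaled by TMM, filtered with filterByExpr and tested with edgeR 4.0.16 (quasi-likelihood, R 4.3.3, Benjamini-Hochberg level of 0.1) with the plate as a block. The numbers pair sums of the same plate, and deviations of sums from a plate correlated at 0.30 (categories) and 0.20 to 0.22 (phases). Levels of genes in sums are TMM-scaled CPM; levels over all cells, totals of all members and sums of marker lists are plain CPM. Alternatives were DESeq2 1.42.0, other scalings and filters, cells thinned to 5000 UMIs (45 shallower cells left out), phases scored again with Seurat 5.3.0 and sums left out in turn. Scripts were tested on simulated data. All 8 measured members are named in every comparison, and of each list the up to 3 called genes with the smallest p. The members and lists were chosen with earlier results of these data known. Sequences of the alpha isotypes' coding ends are not reported here.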

Additional observations from a re-analysis of the deposited data

Results flagged for a closer look

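High minus low PLIN2-GFP differences of Tubb2a had opposite signs in 2 phases on both plates: -0.15 and -0.22 (log2, first and second plate) in G1 phase against 0.21 and 0.40 in S phase, a gap of 0.49 between the means. The difference between these phases was not tested, and the Tubb2a change over all phases was 0.05 (95% interval -0.22 to 0.32).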

How the results depend on the processing

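The G2/M rise of Tuba1b, Tubb5 and Tubb6 passed the threshold in every alternative run with a test. Genes called between high and low cells numbered 179, but 1 with no replicate block, 11 with DESeq2, 68 with thinned cells, 8 in G1 cells only, 2 in cells under 10% mitochondrial counts, and 6 to 22 with a sum left out, a fit that has no block. For G2/M against G1 the 1255 calls became 653 with no replicate block, 317 with DESeq2, 657 with thinned cells and 697 to 1283 with a sum left out. For S against G1 the 975 calls became 444, 207, 412 and 477 to 1048. With library size only, calls between high and low cells split 153 higher to 85 lower instead of 74 to 105, and in S phase 682 to 242 instead of 578 to 397. The call of a category difference in the G2/M change (1 gene) became 0 with no replicate block or DESeq2 and 4 with no filter. The cause of these changes was not tested.

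Besides the losses given above, Tubb2a did not pass in G2/M phase with no replicate block, DESeq2 or no filter. In S phase Tuba1b and Tubb6 alone of the members passed with no replicate block and with DESeq2, and Tubb2b did not with library size only (adjusted p = 0.24) or phases scored without tubulins (0.19). Between high and low cells Tubb2b did not pass with no filter (-0.26, adjusted p = 0.11). In cells under 10% mitochondrial counts neither Tuba1a (-0.33) nor Tubb2b (-0.24) passed (edgeR adjusted p = 0.997 for each). At a level of 0.05 the calls of Tubb2b (high against low, and S) and Tubb2a (G2/M) were lost. The high minus low mitotic share of 3.23 points was 4.65 as the mean of single cells' shares, 1.37 with thinned cells, 3.67 with Tuba1a and Tuba1b alone, 3.34 ± 3.09 (SD, n = 2 plates) with beta isotypes only (chosen after seeing the data) and 3.16 to 3.29 on single plates. The G2/M minus G1 share was 17.8 with Tuba1a and Tuba1b alone and 12.2 with beta isotypes only, and 14.2 to 16.7 on single plates, and S minus G1 was 18.1 with thinned cells and 12 to 14.8 on single plates.

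Members that were not called changed sign in places. Between high and low cells these were Tubb5 (0.062 with library size only, 0.012 with no filter), Tubb6 (-0.30 thinned, -0.19 in G1 cells, -0.39 under 10% mitochondrial), Tubb2a (-0.19 in G1 cells, -0.36 under 10% mitochondrial) and Tubg1 (-0.36 under 10% mitochondrial). With thinned cells the signs also turned for Tuba1a in G2/M (-0.11), Tubb2a in S (-0.17) and, for the difference between categories, Tuba1a (0.16), Tubb2a (-0.41), Tubb2b (-0.013) and Tubg1 (0.30). With sums or plates left out, values between high and low cells ranged from -0.27 to 0.011 for Tuba1b, -1.53 to 0.47 for Tuba1c, -0.11 to 0.09 for Tubb5, -0.19 to 0.36 for Tubb2a and -0.029 to 0.11 for Tubb6; in G2/M phase from -0.12 to 0.16 for Tuba1a; and in S phase from -0.88 to 1.25 for Tuba1c.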
